A study of Mus musculus with 30 samples.

Results

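The genes described here are the ligands and receptors of axon guidance, chosen by symbol, with earlier results of these data known. The list takes protein-coding mouse genes of the semaphorin, plexin, neuropilin, Eph receptor, ephrin, Slit, Robo, netrin, Unc5 and Dcc families. They are 69 of the 55335 genes counted: 20 semaphorins, 9 plexins, 2 neuropilins, 14 Eph receptors, 8 ephrins, 3 Slits, 4 Robos, 4 netrins, 4 Unc5 receptors and Dcc. Of these, 68 passed the filter on low counts. The exception was Epha1, an Eph receptor whose highest value in any library was 0.348 CPM (the count as a share of its library, TMM-scaled). Exons of 15 of the 69 overlap a gene on the opposite strand, among them Ephb4 with Zan, Plxna1 with Gm26811, Plxna4 with Plxna4os3, Ephb1 with Gm26846, Epha6 with Gm9017, Unc5c with Gm15688, Plxnb1 with Gm7628 and Ntn5 with Sec1. No source used here gives the strand setting of the counting, so reads of such a pair could not be told apart.

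Guidance molecules steer growing axons towards or away from a target. Secreted semaphorins bind neuropilins and signal through plexins, most other semaphorins bind plexins directly, Slits repel axons through Robo receptors, netrins attract through Dcc and repel through Unc5, and membrane-bound ephrins and Eph receptors signal in both directions between touching cells. In the adult striatum the same families shape synapses and dendritic spines, and several of them also pattern blood vessels.

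The material was ribosome-bound RNA pulled down with an anti-HA antibody from nucleus accumbens punches of female mice, so the counts report RNA on tagged ribosomes rather than all RNA. The tag, RiboTag (RT), was switched on by Cre in either class of medium spiny neuron (MSN), the principal neuron of the striatum. All mice carried RT. D1-Cre-RT mice label MSNs of the dopamine D1 receptor class. A2A-Cre-RT mice label MSNs of the adenosine A2A receptor class, which are the D2 class, and their libraries are titled D2. Each class had 3 groups: Control, and mice that had gone through chronic witness defeat stress (CWDS) and were then called Resilient or Susceptible by their social interaction scores. Punches were collected 24 h after that behavioural test. Each library pooled 4 mice of similar score and started from 10 ng of RNA. Each of the 6 groups had 5 libraries, 30 in all, described in the labels as biological replicates. No age is given in the labels.

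Gene counts per library ranged from 28996168 to 65882152. In D1 Susceptible replicate 1, Gm42418 alone held 54.9% of the gene counts, against at most 5.46% elsewhere, and 53.3% of reads were not assigned to a gene. In D2 Susceptible replicates 1 and 2, 15822 and 16525 genes were detected, against 19440 to 22375 in the other 28 libraries, and the summed level of 6 epidermal markers was 343 and 546 CPM, against 27.7 to 56.4 CPM elsewhere. D2 Resilient replicate 5 had the highest sum of the 7 D1 MSN markers among D2 libraries, 1858 CPM, and the lowest sum of the 5 D2 MSN markers, 4867 CPM. Many results that rest on these 4 libraries are given with and without them. Over all libraries the class labels held: 6 of 7 D1 markers were higher and 5 of 5 D2 markers lower in D1 (Drd1 at 496 ± 76.4 against 105 ± 99.8 CPM, SD, n = 15). Libraries of both classes also carried markers of other cells, at levels that differed by class. All 14 endothelial, 7 of 9 mural, 9 of 10 astrocyte, 10 of 10 oligodendrocyte, 3 of 5 oligodendrocyte precursor and 5 of 9 microglial markers tested were lower in D1. The sum of the endothelial markers was 22.5 to 63.8 CPM in the D1 libraries and 103 to 433 CPM in the D2 libraries, with no marker at 0 in any group. Interneuron markers were higher in D1 for 9 of 12 and lower for 1, and cortical or other glutamatergic markers for 5 of 6, the latter summing to 486 to 932 CPM in D1 and 147 to 531 CPM in D2.

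Levels of different genes were compared per kilobase of exon, in the unstressed Control libraries. The most abundant guidance RNA was Efnb3, an ephrin of the transmembrane class, at 48.4 ± 4.65 CPM per kilobase in D1 and 55.6 ± 10.9 in D2 (mean ± SD, n = 5). It was followed by Sema6b, a transmembrane semaphorin that signals through A-type plexins, at 33.5 ± 6.24 in D1 and 35.9 ± 5.99 in D2. Next came Epha4, a broad ephrin receptor, at 26.9 ± 3.41 and 27.2 ± 1.79, and Efnb2, its transmembrane ligand, at 26.9 ± 1.84 and 28.3 ± 2.41. For each of these 4 genes the D1 and D2 means differ by less than the larger of their SDs. Epha4 and Efnb2 cannot be ordered in either class beyond their spread. Sema7a, a membrane-anchored semaphorin and ligand of Plxnc1, came next in both classes at 24.4 ± 3.58 in D1 and 23.3 ± 3.53 in D2.

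In the other families the leading member was also the same in both classes. Among plexins and neuropilins it was Plxnd1, the receptor of Sema3e, at 10.3 ± 1.15 CPM per kilobase in D1 and 8.94 ± 0.856 in D2. Among the Slit receptors Robo2 led, at 7.43 ± 0.911 in D1 and 5.74 ± 0.716 in D2, and among the Slits Slit1, at 4.03 ± 0.521 in D1 and 3.05 ± 0.218 in D2. Unc5a, a netrin receptor of the repulsive type, led the netrin group at 11.1 ± 1.65 in D1 and 11.9 ± 1.19 in D2. At the other end, Robo3, Epha1, Efna4 and Epha2 had means of 0.0330, 0.0150, 0.0136 and 0.00225 CPM per kilobase in D1. Robo2 and Epha4 have long merged exons: on the longest transcript instead, Robo2 was 14.7 in D1 and 11.4 in D2, and Epha4 was 34.3 and 34.6. On that length Efnb2 was 38.4 and 40.4 and Sema6b 35.6 and 38.2, so the order of Sema6b, Epha4 and Efnb2 changes with the length used.

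**Figure D1:**
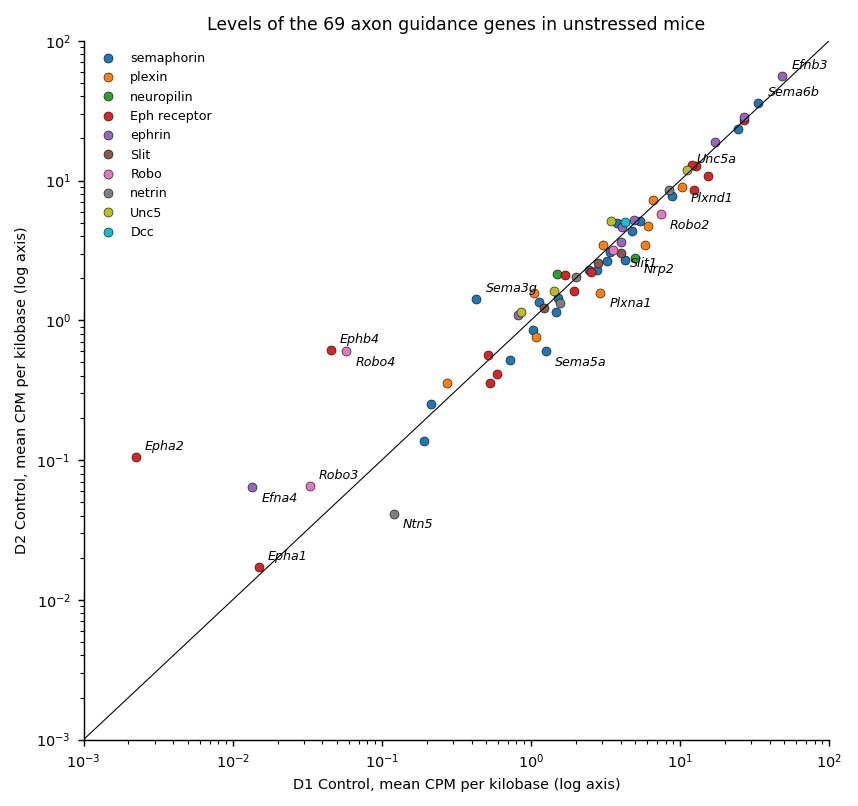
Mean level of each of the 69 guidance genes in Control libraries, in CPM per kilobase of exon on log axes, with D1 on the x axis, D2 on the y axis (n = 5 libraries each), families in colour and a line at equal levels. Most genes lie near the line, while Sema3g, Ephb4, Robo4 and Epha2 lie above it and Nrp2, Sema5a and Plxna1 below it.

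The first comparison asked which guidance genes differ between the 2 MSN classes when the 3 groups are averaged. Of the 68 genes tested, 22 were higher in D1 and 11 were lower, 33 in all or 48.5%. Across all 19368 genes tested the share called was 29.3%, with 13.8% higher and 15.5% lower. The higher genes included 8 semaphorins, 5 plexins, 4 Eph receptors, the netrins Ntn1 and Ntn5, Slit1, Robo2 and Nrp2. The lower genes included the netrin receptors Dcc, Unc5b, Unc5c and Unc5d, the Eph receptors Ephb4 and Epha2, and Sema3g, Plxnb1, Nrp1, Robo4 and Efna2. The other 7 ephrins did not pass the test. The median difference of the 68 genes was 0.07 on the log2 scale and that of all genes 0.00, and the median size of the difference regardless of sign was 0.27 and 0.24. Tests were edgeR quasi-likelihood F tests, with Benjamini-Hochberg adjustment over all genes at a threshold of 0.05. In these bulk libraries, fewer cells of a type and less RNA per cell cannot be told apart.

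The same comparison was then read within single groups. The average is built from these 3 groups, so a call within a group is not independent of it. The 3 groups hold separate libraries but share the fit. In Control libraries 10 guidance genes were called (14.7%, against 8.3% of all genes), in Resilient libraries 11 (16.2%, against 6.65%) and in Susceptible libraries 28 (41.2%, against 23.9%). Of the 10 called in Control, 9 had the same sign in Resilient and 10 in Susceptible, and 7 and 8 were also called there. The 7 called in all 3 groups were Nrp2, Sema5a, Plxnc1, Plxna1, Sema3g, Ephb4 and Robo4. Sema6d and Slit1 were called in 2 groups. Called in 1 group were Robo2 and Epha2 in Control, Unc5c, Sema4f and Plxnb1 in Resilient, and 19 genes in Susceptible. The Resilient count fell to 6 without D2 Resilient replicate 4 and to 7 without D1 Resilient replicate 2 or 4. The Susceptible count fell to 17 without D2 Susceptible replicate 2 and to 16 without D2 Susceptible replicates 1 and 2. With only the groups compared in the fit it was 8, and the Control count was 16. Voom called 26 in Control and 25 in Resilient. The share of all genes called is given for the main fit only, so counts from these alternatives have no share to be read against.

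**Figure D2:**
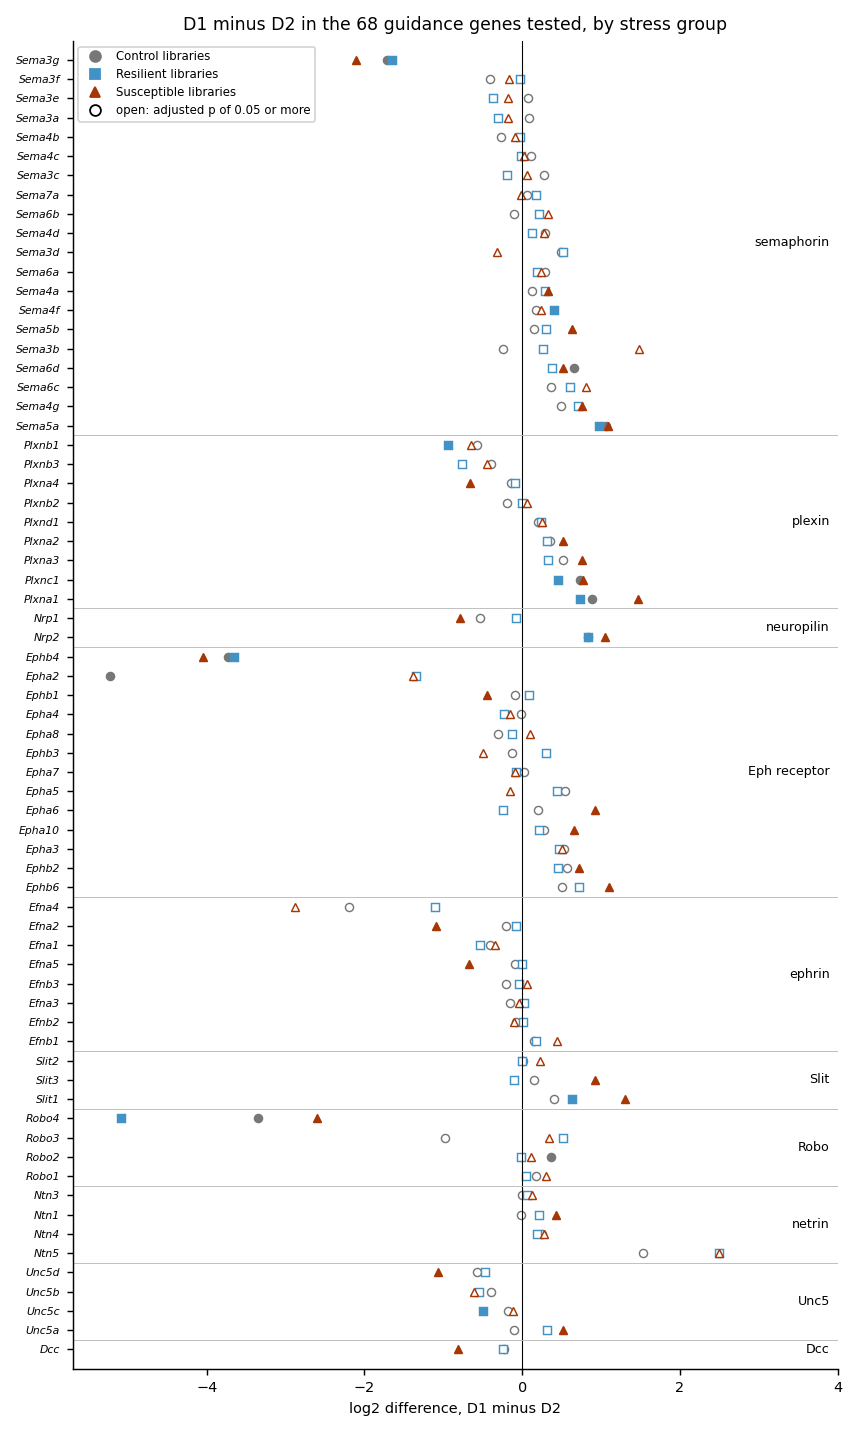
Difference between D1 and D2 libraries (log2, D1 minus D2, x axis) for each of the 68 guidance genes tested (y axis, by family), in Control (circles), Resilient (squares) and Susceptible libraries (triangles), n = 5 against 5 each, filled where the adjusted p was under 0.05. Nrp2, Sema5a, Plxnc1 and Plxna1 are filled on the right and Sema3g, Ephb4 and Robo4 on the left in all 3 groups.

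Of the 7 genes called in every group, the 6 with a promoter entry are shown, as the sequences upstream of the genes called most often between the classes. Plxna1 is named only. The bases come from RefSeq on GRCm38.p6 and are the 150 before the start of the gene (the more upstream of the RefSeq and GENCODE starts), 5′ to 3′ on the gene's strand. Capitals mark GC boxes, GGGCGG on either strand (CCGCCC on the other), which may overlap one another. The intervals are chr1:62703135-62703284 (plus strand) for Nrp2, chr15:32244660-32244809 (plus) for Sema5a, chr10:94944846-94944995 (minus) for Plxnc1, chr14:31217710-31217859 (plus) for Sema3g, chr5:137349959-137350108 (plus) for Ephb4 and chr9:37401747-37401896 (plus) for Robo4. The first 3 genes were higher in D1 and the last 3 higher in D2.
Nrp2: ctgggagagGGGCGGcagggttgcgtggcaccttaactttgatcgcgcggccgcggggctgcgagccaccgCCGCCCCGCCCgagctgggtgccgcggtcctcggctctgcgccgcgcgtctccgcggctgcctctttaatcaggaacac
Sema5a: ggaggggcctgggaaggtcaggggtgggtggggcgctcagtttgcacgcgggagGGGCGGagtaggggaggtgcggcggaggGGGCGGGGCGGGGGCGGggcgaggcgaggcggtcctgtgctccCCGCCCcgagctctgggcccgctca
Plxnc1: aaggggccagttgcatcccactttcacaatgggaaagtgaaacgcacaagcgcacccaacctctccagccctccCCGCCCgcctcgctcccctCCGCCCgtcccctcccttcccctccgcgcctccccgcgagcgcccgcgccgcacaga
Sema3g: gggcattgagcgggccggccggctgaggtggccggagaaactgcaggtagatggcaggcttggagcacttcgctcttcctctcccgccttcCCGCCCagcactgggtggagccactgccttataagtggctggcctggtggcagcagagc
Ephb4: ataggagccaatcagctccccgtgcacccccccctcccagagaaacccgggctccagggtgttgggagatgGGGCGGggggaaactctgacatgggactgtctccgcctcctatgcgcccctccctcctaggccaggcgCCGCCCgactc
Robo4: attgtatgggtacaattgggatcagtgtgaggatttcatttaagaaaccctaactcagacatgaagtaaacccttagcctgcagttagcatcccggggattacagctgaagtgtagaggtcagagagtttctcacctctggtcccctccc
Of the 6, Robo4 held 0 GC boxes in the 250 bases before the RefSeq start, against 5 matches for Nrp2, 5 for Sema5a, 4 for Plxnc1, 1 for Sema3g and 4 for Ephb4. The GC content of those 250 bases was 49.6% for Robo4, and 72.4%, 72%, 68.8%, 60.4% and 64% for the others in that order. Of the 59 guidance genes matched to a promoter, 43 (72.9%) held a GC box, against 32.7% of all 32851 promoters in the table. These shares are not like for like. Each guidance gene gave 1 promoter, the entry nearest its GENCODE start, while the table holds every entry and is not limited to the genes tested here. Some of the entries used lie far from that start, such as those of Robo1 (354843 bases) and Sema3a (271370 bases). The ETS letters CCGGAAG were found in 3.39% of the guidance promoters and 6.91% of all, the cyclic AMP response element TGACGTCA in 1.69% and 1.55%, the TATA letters TATAAA in 3.39% and 12.4%, and the E-box CACGTG in 3.39% and 6.02%, each on both strands. None of these other 4 was found in the 250 bases of the 6 genes shown. A match describes letters only.

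Among the receptors higher in D1, Nrp2, the neuropilin that binds secreted semaphorins of class 3, had the smallest adjusted p. It lies at chr1:62703285-62818695. In Control libraries it was 50.5, 56.4, 66.8, 56.8 and 62.8 CPM in D1 and 37.8, 28.6, 28.2, 34.5 and 35.8 CPM in D2. In Resilient libraries it was 56.5, 48.0, 62.4, 42.5 and 51.7 CPM in D1 and 26.5, 27.3, 27.8, 25.7 and 39.2 CPM in D2. In Susceptible libraries it was 64.8, 51.3, 52.5, 41.5 and 53.3 CPM in D1 and 17.2, 28.9, 26.9, 26.1 and 27.7 CPM in D2. Every D1 library was above every D2 library, with the closest D2 library being Resilient replicate 5. The averaged difference was 0.91 on the log2 scale (SE 0.0796, adjusted p 2.11e-10). Within groups it was 0.83 in Control, 0.83 in Resilient and 1.05 in Susceptible. Leaving out any single library kept the averaged difference between 0.88 and 0.95.

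Non-overlap of the 15 D1 and 15 D2 libraries held for 4 guidance genes of the 68 (5.88%, against 1.18% of all genes): Nrp2 and Sema5a above, Sema3g and Ephb4 below. Sema5a, a transmembrane semaphorin with thrombospondin repeats that can attract or repel, lies at chr15:32244810-32696341. In Control it was 19.3, 19.8, 29.2, 23.1 and 25.9 CPM in D1 and 10.0, 10.6, 10.6, 9.54 and 15.3 CPM in D2. In all 15 D1 libraries it ran from 16.8 through a median of 24.6 to 29.2 CPM, and in the 15 D2 libraries from 7.02 through 10.6 to 15.3 CPM. The lowest D1 library, Susceptible replicate 4, was thus just above the highest D2 library, Control replicate 5. The averaged difference was 1.04 (SE 0.104, adjusted p 2.93e-09), and it was 1.06 in Control, 0.97 in Resilient and 1.09 in Susceptible.

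Plexins, which transmit the semaphorin signal into the cell, were mostly higher in D1. Plxnc1, the receptor of Sema7a, lies at chr10:94790866-94944835. It was 46.4, 44.4, 51.6, 49.5 and 49.4 CPM in D1 Control and 28.1, 27.1, 32.0, 24.9 and 33.0 CPM in D2 Control, with no overlap. Across stress groups D1 libraries ran from 39.2 through 46.7 to 52.5 CPM and D2 libraries from 23.6 through 28.1 to 46.6 CPM. The only D2 library inside the D1 range was Resilient replicate 5, at 46.6 CPM. Averaged over groups, it differed by 0.65 (SE 0.0694, adjusted p 1.11e-08). The Resilient difference of 0.45 lost its call in 3 of 17 alternatives, each leaving out 1 library (D1 replicate 2, D2 replicate 3 or D2 replicate 4).

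Plxna1, a co-receptor for secreted semaphorins and for Sema6d, lies at chr6:89316314-89362620. It was 32.7, 28.2, 23.3, 26.5 and 21.2 CPM in D1 Control and 13.5, 16.2, 15.9, 11.9 and 13.8 CPM in D2 Control. In Susceptible libraries it was 38.0, 22.9, 21.5, 23.7 and 37.7 CPM in D1 and 6.23, 7.53, 14.7, 10.4 and 12.8 CPM in D2. The groups did not overlap in Control or Susceptible, and in Resilient the D2 replicate 5, at 22.6 CPM, lay above the lowest D1 library, at 17.7 CPM. Averaged over groups, it differed by 1.03 (SE 0.122, adjusted p 7.95e-08). In Resilient it was 0.74 with an adjusted p of 0.0262, and that call was lost in 7 of 17 alternatives, the library left out being D1 replicate 2, 3 or 4 or D2 replicate 1, 2, 3 or 4.

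The other plexins higher in D1 had smaller differences or lower levels. Plxna2, an A-type plexin that binds Sema6 ligands, was 92.8 to 116 CPM in D1 Control and 75.3 to 90.9 CPM in D2 Control, again without overlap, and its averaged difference was 0.40 (SE 0.0725, adjusted p 7.68e-05). Plxna3, which pairs with neuropilins, differed by 0.53 (SE 0.146, adjusted p 0.00589), and Plxnd1 by 0.23 (SE 0.0771, adjusted p 0.0216). Plxnb1, a receptor of Sema4d, went the other way. It was lower in D1 by an averaged log2 difference of -0.72 (SE 0.157, adjusted p 0.000722), with D1 libraries from 6.33 through 8.22 to 17.1 CPM and D2 libraries from 5.56 through 15.9 to 23.4 CPM, which overlap. Plxna4, Plxnb2 and Plxnb3 did not pass the test in this comparison.

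Of the guidance ligands, 8 of 20 semaphorins were higher in D1. Sema6d, a transmembrane semaphorin, was 41.8, 40.4, 48.5, 42.5 and 52.2 CPM in D1 Control and 24.8, 29.0, 24.5, 29.1 and 36.1 CPM in D2 Control. In D2 Susceptible it spread from 12.9 CPM in replicate 2 to 43.3 CPM in replicate 1, so only the Control and Resilient libraries of the classes separated. Its averaged difference was 0.52 (SE 0.101, adjusted p 0.000219). The call in Control was lost without D1 Control replicate 5, and that in Susceptible in 7 of 18 alternatives. The other 6 were Sema4g (0.65), Sema6c (0.59), Sema5b (0.36), Sema4f (0.27), Sema4a (0.25) and Sema4d (0.23), all membrane-bound semaphorins, with adjusted p from 0.00109 to 0.0166. Of these, Sema4g, the largest difference, was 3.75 to 8.95 CPM in D1 and 0.985 to 5.25 CPM in D2, which overlap. Of the secreted class 3 semaphorins, Sema3a to Sema3g, only Sema3g passed the test.

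Slit1, a secreted repellent, was the only Slit called in the average. It lies at chr19:41600257-41743665. In Control it was 24.9, 28.5, 22.3, 23.3 and 20.3 CPM in D1 and 16.1, 17.8, 17.9, 19.0 and 19.5 CPM in D2. In Susceptible it was 38.0, 24.9, 29.9, 26.3 and 32.1 CPM in D1 and 9.13, 6.76, 15.2, 14.2 and 15.9 CPM in D2. The libraries did not overlap in either group, and the gap was wider in Susceptible. The averaged difference was 0.78 (SE 0.112, adjusted p 2.35e-06). Within groups it was 0.40 in Control (adjusted p 0.238), 0.64 in Resilient (0.04) and 1.30 in Susceptible (2.4e-05). The Resilient call was lost in 9 of 17 alternatives. They were the replicate block (adjusted p 0.068), the fit of only the groups compared, and leaving out D1 Resilient replicate 1, 2 or 4 or D2 Resilient replicate 1, 2, 3 or 4. Its receptor Robo2 was higher in D1 in Control, at 108, 111, 140, 135 and 137 CPM against 100, 96.6, 92.5, 82.7 and 116 CPM, which overlap (difference 0.37, SE 0.0955, adjusted p 0.0117, and 0.0502 without D1 Control replicate 3). It was not called in the other groups, at -0.02 in Resilient and 0.11 in Susceptible. Slit3 was called in Susceptible alone (0.92, adjusted p 0.0221). That call was lost with voom, with only the groups compared, without D1 Susceptible replicate 1 (0.68) or D2 Susceptible replicate 2 (0.82), without D2 Susceptible replicates 1 and 2 (0.49) and without the 4 libraries that stood apart (0.22).

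Eph receptors higher in D1 were Ephb6 (0.78), a kinase-dead receptor, Ephb2 (0.58), a receptor with known roles at excitatory synapses, Epha3 (0.50) and Epha10 (0.38), with adjusted p from 0.0026 to 0.0149. Ephb6 was the most abundant of the 4 and ran from 44.5 through 62.4 to 79.0 CPM in D1 and from 6.40 through 42.1 to 58.9 CPM in D2. Its 2 lowest values, 6.40 and 12 CPM, were D2 Susceptible replicates 1 and 2, and without them the averaged difference was 0.60 (adjusted p 4.27e-05). Ntn1, a netrin that attracts axons through Dcc, differed by 0.21 (SE 0.0685, adjusted p 0.0202), a call lost with voom (adjusted p 0.0641). The other netrin called, Ntn5, is outside the rule for naming genes and is given because it completes the count: it was 0.0369 to 0.561 CPM in D1 and 0 to 0.189 CPM in D2, with 9 D2 libraries at 0. Markers of other neurons were mostly higher in D1 as well. Of 12 interneuron markers 9 were higher and 1 lower, with a median log2 difference of 0.92. Of 6 cortical or other glutamatergic markers 5 were higher and 0 lower, with a median of 1.09. Their part in the differences of the guidance genes higher in D1 was not tested.

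**Figure D3:**
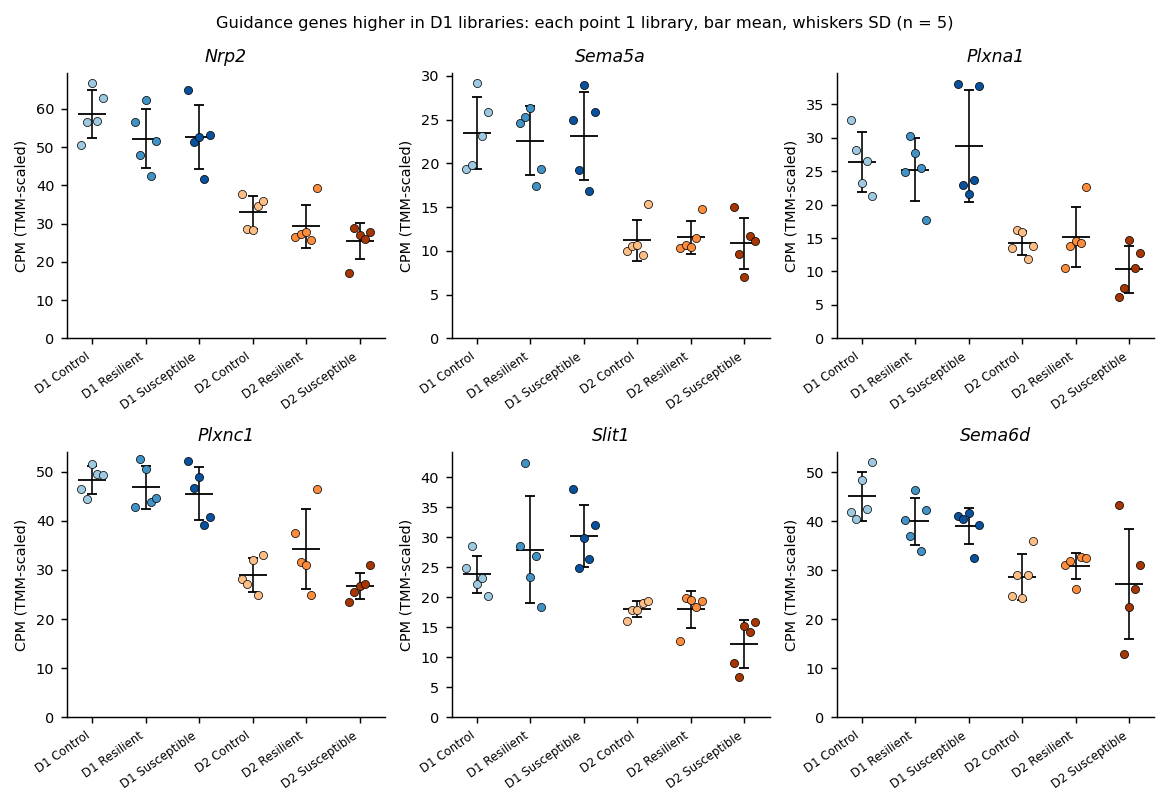
CPM in each library (points) of Nrp2, Sema5a, Plxna1, Plxnc1, Slit1 and Sema6d, for the 3 D1 groups (blue) and the 3 D2 groups (orange), with mean (bar) and SD (whiskers), n = 5. For Nrp2 and Sema5a all D1 points lie above all D2 points, and for Plxnc1 and Plxna1 D2 Resilient replicate 5 is the highest D2 point, at 46.6 and 22.6 CPM.

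Genes higher in the D2 libraries were led by 3 that are known from blood vessels. Sema3g, a secreted semaphorin of arterial endothelium, lies at chr14:31217860-31230352. It was 2.83, 2.23, 1.15, 1.39 and 2.18 CPM in D1 Control and 6.45, 8.07, 5.34, 8.41 and 3.81 CPM in D2 Control. Over all groups D1 libraries ran from 1.15 through 1.98 to 2.83 CPM and D2 libraries from 3.60 through 6.45 to 13.3 CPM, without overlap. The averaged D1 minus D2 difference was -1.82 (SE 0.172, adjusted p 9.48e-10), and leaving out single libraries kept it between -1.88 and -1.71.

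Ephb4, the Eph receptor of venous endothelium, lies at chr5:137350109-137378669. It was 0.378, 0.221, 0.0188, 0.148 and 0.291 CPM in D1 Control and 2.65, 3.44, 2.45, 3.67 and 1.98 CPM in D2 Control. The D1 values rest on few counts, 153 in total over 15 libraries against 2531 in D2. In D2 Susceptible replicate 1 it was 10.1 CPM, and the other 4 libraries of that group were 2.43 to 3.38 CPM. The averaged difference was -3.81 (SE 0.385, adjusted p 3.68e-09), and it was -3.63 without D2 Susceptible replicates 1 and 2 (adjusted p 5.4e-10).

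Robo4, the endothelial member of the Robo family, lies at chr9:37401897-37415115. It was 0.693, 0.289, 0.226, 0.277 and 0.0486 CPM in D1 Control and 2.87, 3.62, 3.31, 3.84 and 2.29 CPM in D2 Control. In D2 Susceptible it was 0, 1.92, 6.07, 5.04 and 4.71 CPM. The library at 0 is replicate 1. Every other D2 library, down to 1.63 CPM in Resilient replicate 5, lay above every D1 library, whose highest was 1.10 CPM. The averaged difference was -3.68 (SE 0.454, adjusted p 1.85e-07), and it was -3.87 without D2 Susceptible replicates 1 and 2 (adjusted p 2.95e-11). In Susceptible alone the call was lost when only the groups compared entered the fit (adjusted p 0.176).

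Like these 3 genes, the endothelial markers were lower in D1, and the plot of genes higher in D2 shows the marker sum next to the genes. All 14 markers were lower in D1, by log2 differences from -3.69 (Emcn) to -2.21 (Esam), among them Flt1 (-3.65), Cldn5 (-3.28) and Pecam1 (-3.07). Among D2 libraries the lowest endothelial sum, 103 CPM, was in Resilient replicate 5, which also had the lowest Ephb4 of any D2 library (0.925 CPM) and the lowest Sema3g (3.60 CPM). The highest sum, 433 CPM, was in Susceptible replicate 1, which had the highest Ephb4 and Sema3g but Robo4 at 0. The part of endothelial RNA in the 3 differences was not tested.

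Epha2, an Eph receptor, was lower in D1 as well, at very low counts. It had 3 counts in the 5 D1 Control libraries together and 139 in the 5 D2 Control libraries, a ratio of 42.9 (exact 95% counting interval 14.4 to 210.7, which covers counting error only). In Resilient the counts were 41 and 125, a ratio of 2.78 (1.94 to 4.06), and in Susceptible 11 and 83, a ratio of 5.72 (3.04 to 11.9). Of the 11 D1 Susceptible counts all but 4 came from replicate 1, and without that library, an alternative chosen after seeing the data, the ratio was 15.03 (5.65 to 56.45). It was called in Control (adjusted p 0.0158) and in the average (adjusted p 0.00557), and the Control call was lost without D1 Control replicate 3. DESeq2 gave no adjusted p for it in Control. Nrp1, the other neuropilin, was lower in D1 where Nrp2 was higher, with an averaged difference of -0.47 (SE 0.129, adjusted p 0.00633). Its D1 libraries ran from 8.63 through 15.1 to 22.4 CPM and its D2 libraries from 14.4 through 19.2 to 40.2 CPM. The averaged difference ran from -0.52 to -0.39 with single libraries left out, and stayed called in all 37 alternatives. The difference was -0.53 in Control, -0.08 in Resilient and -0.79 in Susceptible, where the 2 highest libraries were D2 replicates 2 and 1, at 40.2 and 32.2 CPM, and where the call was lost without them.

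Among netrin receptors, 3 of 4 Unc5 genes and Dcc were called lower in D1. Unc5d, which also binds Flrt proteins, was 25.9, 30.9, 34.5, 30.7 and 35.5 CPM in D1 Control and 43.1, 41.2, 46.1, 62.6 and 42.0 CPM in D2 Control, without overlap. Its averaged difference was -0.71 (SE 0.118, adjusted p 2.87e-05). Within Control it was -0.58 and did not pass (adjusted p 0.0796), as in Resilient (-0.47, adjusted p 0.228), while in Susceptible it was -1.07 (adjusted p 0.000504). With single libraries left out, the averaged Unc5d difference ran from -0.75 to -0.60 and the Susceptible difference from -1.20 to -0.78. The Susceptible call was kept in all 18 alternatives. Unc5c differed by -0.26 (SE 0.0757, adjusted p 0.00838) and Unc5b by -0.52 (SE 0.172, adjusted p 0.0216), and the call of Unc5b was lost without D2 Control replicate 4 (adjusted p 0.0523). Unc5a, the most abundant of the family, was not called in the average, at 0.24 (adjusted p 0.0931).

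Dcc, the attractive netrin receptor, was 40.8, 52.2, 62.9, 59.8 and 65.2 CPM in D1 Control and 59.0, 59.7, 61.2, 83.4 and 67.4 CPM in D2 Control, which overlap. Its averaged difference was -0.43 (SE 0.119, adjusted p 0.00633), and it was -0.23 without D2 Susceptible replicates 1 and 2 (adjusted p 0.0321). Neither Control nor Resilient passed on its own, each at -0.24. Efna2, a membrane-anchored ephrin, was the only ephrin called in the average, at -0.46 (SE 0.149, adjusted p 0.0199). Without D2 Susceptible replicates 1 and 2 its difference was -0.16 and not called (adjusted p 0.135). Efna5 was called in Susceptible alone (-0.67, adjusted p 0.0282), and without the same 2 libraries its difference was 0.0422.

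**Figure D4:**
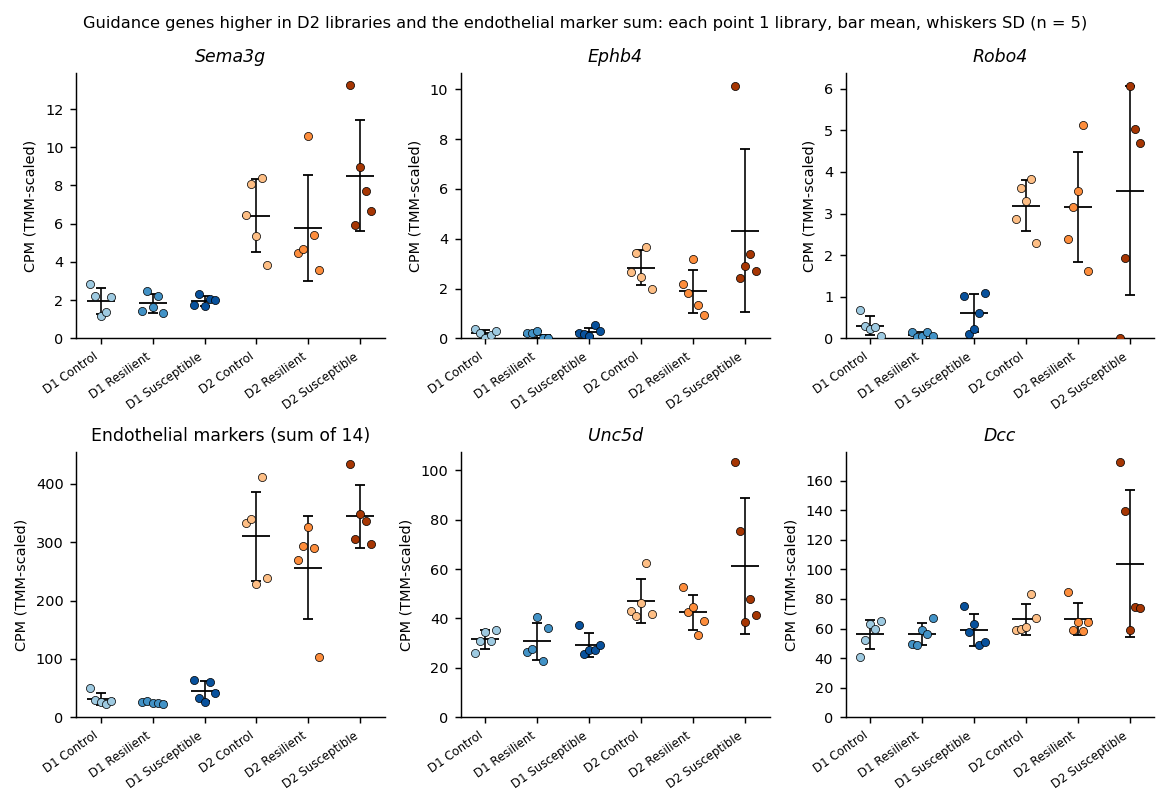
CPM in each library (points) of Sema3g, Ephb4, Robo4, Unc5d and Dcc, and the sum of 14 endothelial markers, for the 3 D1 groups (blue) and the 3 D2 groups (orange), with mean (bar) and SD (whiskers), n = 5. Sema3g, Ephb4 and the marker sum are low in all D1 libraries, Robo4 is at 0 in D2 Susceptible replicate 1, and Unc5d and Dcc reach 103 and 173 CPM in that library.

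The same comparison was read for 88 other genes of guidance signalling, such as cofactors, adaptors and cytoskeletal effectors, of which 87 were tested. In D1, 26 were higher and 15 lower, where 13.8% of all genes were higher and 15.5% lower, with a median of 0.07 on the log2 scale against 0.00 over all genes. The 8 with the smallest adjusted p included 6 that were higher in D1. These were Chl1 (1.14), an adhesion molecule that joins neuropilin complexes, Dscam (0.93), a netrin-binding adhesion molecule, Dpysl5 (0.87) and Crmp1 (0.42), which carry semaphorin signals to microtubules, Lingo1 (0.64), a partner of the Nogo receptor, and Srgap3 (0.33), a Robo effector. The other 2 were Kdr (-2.80), a vascular growth factor receptor that is also 1 of the 14 endothelial markers, and Cxcl12 (-1.23), a chemokine. Adjusted p ran from 1.05e-10 for Kdr to 7.56e-07 for Crmp1.

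The second set of comparisons asked what stress outcome did to guidance genes within each class. None of the 68 was called in any of the 6 comparisons by edgeR. The share of all genes called was 0% in each of the 3 D1 comparisons and in D2 Resilient against Control, 0.00516% in D2 Susceptible against Control and 0.0516% in D2 Susceptible against Resilient. At an unadjusted p under 0.05 there were 2, 4 and 4 guidance genes in D1 Susceptible against Control, Resilient against Control and Susceptible against Resilient (2.4%, 2.6% and 3.49% of all genes). In D2 there were 14, 1 and 13 (20.6%, 1.47% and 19.1% of the guidance genes, against 15.7%, 4.2% and 19.1% of all genes). DESeq2 called 0 in 5 of the comparisons and 4 in D2 Susceptible against Resilient, Ephb1, Efna2 and Plxna4 among them. Voom with sample weights called 2 in D1 Resilient against Control, Unc5c and Robo2, and 0 in the other 5. For DESeq2 and voom the share of all genes called is not given here. Of the 87 partner genes, 0 were called by edgeR in any of the 6, with 18 at an unadjusted p under 0.05 in D2 Susceptible against Control and 19 in D2 Susceptible against Resilient. Comparisons within a class share libraries, so their values are given side by side and not as support for one another.

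In D2, the guidance genes with the smallest p in Susceptible against Resilient were Ephb1, Efna2 and Plxna4, and in Susceptible against Control Dcc, Efna2 and Slit1. Ephb1, a receptor of transmembrane ephrins, was 80.5, 78.9, 92.4, 98.2 and 98.5 CPM in D2 Control, 87.1, 77.5, 74.3, 81.7 and 93.4 in Resilient and 149, 154, 85.0, 98.3 and 89.3 in Susceptible. The high values are Susceptible replicates 1 and 2, and the other 3 lie within or next to the range of the Control libraries. The difference was 0.48 from Resilient (SE 0.126, adjusted p 0.0668) and 0.36 from Control (adjusted p 0.191). Without replicates 1 and 2 the difference from Resilient was 0.14. It passed the threshold with DESeq2 and without Susceptible replicate 3, 4 or 5, and adjusted p ran from 0.00976 to 1 over 18 alternatives.

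Efna2 was 8.96, 9.95, 8.76, 10.9 and 11.3 CPM in D2 Control and 18.8, 39.8, 8.72, 10.6 and 9.56 CPM in D2 Susceptible. The same pair of libraries stood out, here with replicate 2 the higher. The difference was 0.81 from Control (SE 0.258, adjusted p 0.175) and 0.91 from Resilient (adjusted p 0.078). Without replicates 1 and 2 it was -0.05 from Control and 0.05 from Resilient, and without replicate 2 alone 0.25 and 0.35.

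Plxna4, an A-type plexin that carries class 3 semaphorin signals, was 106, 95.3, 95.5, 91.3 and 77.3 CPM in D2 Resilient and 250, 220, 82.2, 116 and 93.6 CPM in D2 Susceptible. Dcc was 173, 140, 58.9, 74.9 and 73.6 CPM in D2 Susceptible, against 59.0 to 83.4 CPM in Control. Slit1, lower in this group, was 9.13, 6.76, 15.2, 14.2 and 15.9 CPM, below all 5 Control libraries (16.1 to 19.5 CPM). Such a non-overlap was found for 2 of the 68 genes in this comparison, Slit1 and Sema4g, 2.94% against 1.31% of all genes. The differences from Control were 0.65 for Dcc (adjusted p 0.175) and -0.56 for Slit1 (adjusted p 0.189), and the difference from Resilient was 0.71 for Plxna4 (adjusted p 0.0906). Without replicates 1 and 2 they were 0.06, -0.26 and 0.06.

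Other values moved with these libraries. In D2 Susceptible replicates 1 and 2 the epidermal marker sum was 343 and 546 CPM, against 44.4 to 53.4 CPM in the other 3 libraries of the group, the oligodendrocyte sum was 1959 and 1532 CPM against 887 to 1129, and fewer genes were detected. Over the whole D2 Susceptible group, the 7 D1 MSN markers had a median difference of -1.01 from Control (3 at an unadjusted p under 0.05) and -1.25 from Resilient (4), and the 12 interneuron markers -0.72 (6) and -0.41 (5), with 0 called. The D1 MSN sum ran from 281 to 637 CPM in D2 Susceptible, 344 to 1236 in Control and 371 to 1858 in Resilient, with medians of 368, 488 and 386 CPM. Susceptible replicates 1 and 2 had the highest D1 MSN sums of their group, 637 and 516 CPM. The 1236 and 1858 CPM were replicate 5 of Control and replicate 5 of Resilient. The part of all these in the differences was not tested. In D2 Resilient against Control the smallest p among guidance genes were those of Sema3e (0.26, unadjusted p 0.0438), the ligand of Plxnd1, Plxnc1 (0.24, 0.0536) and Robo2 (0.16, 0.108), all with adjusted p rounding to 1. The Plxnc1 value was 0.11 without D2 Resilient replicate 5, and the Robo2 value was 0.10 without D2 Control replicate 4.

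**Figure D5:**
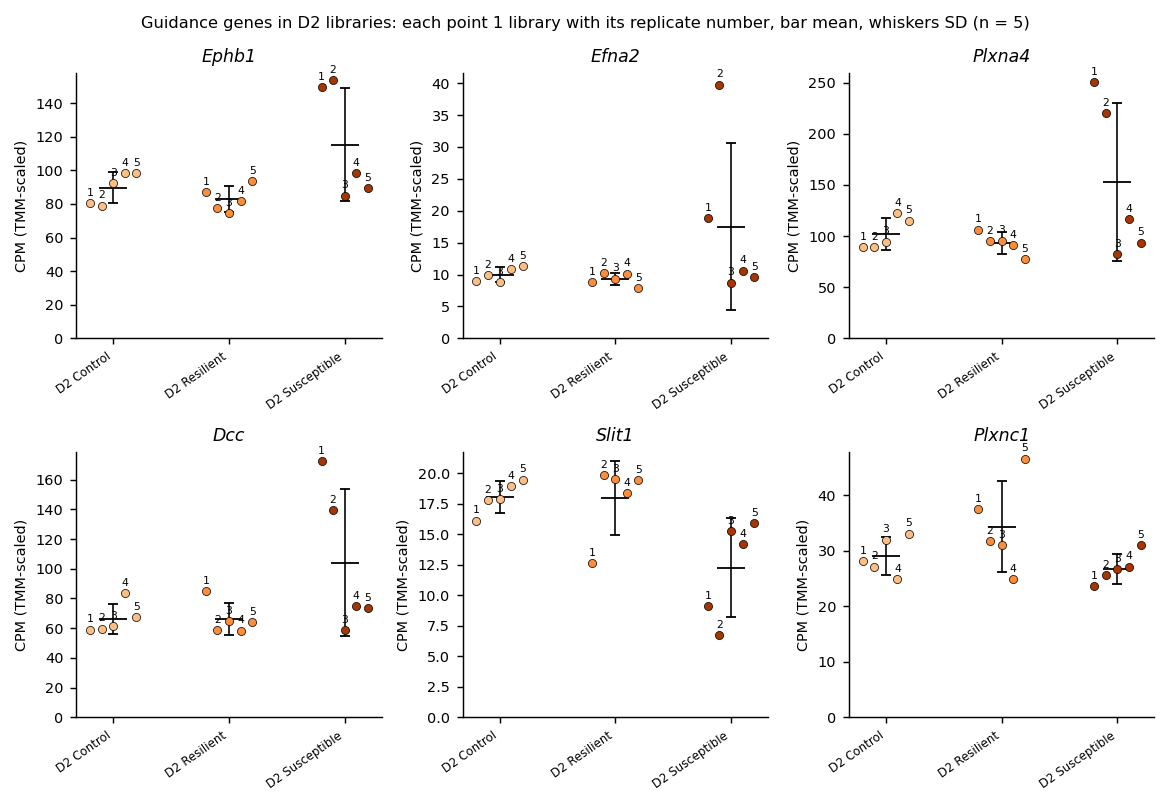
CPM in each D2 library (points, with replicate number) of Ephb1, Efna2, Plxna4, Dcc, Slit1 and Plxnc1 in Control, Resilient and Susceptible, with mean (bar) and SD (whiskers), n = 5. Susceptible replicates 1 and 2 are the 2 highest for Ephb1, Efna2, Plxna4 and Dcc and the 2 lowest for Slit1 within their group.

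In D1, the smallest p in Susceptible against Control were those of Epha2, Plxna2 and Slit3, in Resilient against Control those of Epha2, Unc5c and Robo2, and in Susceptible against Resilient those of Robo4, Unc5c and Plxna2. Unc5c, a repulsive netrin receptor, was 25.5, 25.6, 31.2, 28.8 and 25.9 CPM in D1 Control, 19.9, 21.2, 23.7, 21.4 and 21.4 in Resilient and 43.4, 23.9, 23.1, 25.1 and 26.2 in Susceptible. All 5 Resilient libraries lay below the 5 Control libraries, the only guidance gene without overlap in that comparison (1.54% of all genes). The difference was -0.35 (SE 0.131, adjusted p 1 by edgeR), and voom called it (adjusted p 0.0227). Robo2 in the same comparison was -0.23 (SE 0.0954, adjusted p 1), with voom at -0.31 (adjusted p 0.0142). In this comparison 8 of 10 oligodendrocyte markers (median -0.61) and 6 of 10 astrocyte markers (median -0.69) had an unadjusted p under 0.05, and 0 were called. The oligodendrocyte sum was 539 to 1102 CPM in D1 Control and 405 to 577 CPM in Resilient, and the astrocyte sum 363 to 835 and 288 to 388 CPM. Both upper ends in D1 Control were replicate 1. The other D1 Control libraries had oligodendrocyte sums of 539 to 651 CPM and astrocyte sums of 363 to 450 CPM. The part of these glial markers in the differences of Unc5c and Robo2 was not tested.

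Several D1 values rested on Susceptible replicate 1, the library with most counts in Gm42418. Plxna2 was 191 CPM there and 89.1 to 134 CPM in the other 4. Its difference from Control was 0.26 (unadjusted p 0.0431), and 0.08 without that library. Slit3, a secreted Slit, was 42.5 CPM there and 17.5 to 25.9 CPM in the others, a difference from Control of 0.52 that was 0.26 without it. Unc5c from Resilient was 0.38, and 0.19 without it. Epha2 had 3, 41 and 11 counts in D1 Control, Resilient and Susceptible, with 3, 1 and 2 libraries at 0, and was 0.71 CPM in Susceptible replicate 1 against at most 0.0537 CPM in the others of that group. Robo4 in D1 was 0.150, 0.0387, 0.0620, 0.145 and 0.0554 CPM in Resilient and 1.01, 0.0950, 0.215, 0.619 and 1.10 CPM in Susceptible, a difference of 2.65 (SE 0.822, unadjusted p 0.00305, adjusted p 0.856). The endothelial sum was 23.6 to 27.5 CPM in D1 Resilient and 26.7 to 63.8 CPM in D1 Susceptible, with 9 of 14 markers at an unadjusted p under 0.05 and 0 called. Its part in the Robo4 difference was not tested.

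The third set of comparisons asked whether stress changes differed between the classes, as the D1 change minus the D2 change. No guidance gene and no gene of any kind was called (0% in each of the 3). At an unadjusted p under 0.05 there were 6, 3 and 11 guidance genes for Susceptible against Control, Resilient against Control and Susceptible against Resilient, where the share of all genes was 7.79%, 4.99% and 12.4%. DESeq2 called 0 in all 3, and voom called 1, Robo2, in Resilient against Control. For Susceptible against Control the smallest p were Slit1 (0.90, SE 0.274, adjusted p 0.637) and Ntn1 (0.44, SE 0.168, adjusted p 0.637). Slit1 means were 23.8 ± 3.08 and 30.3 ± 5.20 CPM in D1 Control and Susceptible, and 18.1 ± 1.29 and 12.2 ± 4.06 CPM in D2 (SD, n = 5). Without D2 Susceptible replicates 1 and 2 the Slit1 value was 0.60. Ntn1 means were 52.9 ± 6.01 and 57.7 ± 6.14 CPM in D1, and 53.3 ± 6.75 and 42.9 ± 6.41 CPM in D2, and its value was 0.48 without them.

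For Resilient against Control the smallest p were Robo2 (-0.39, SE 0.135, adjusted p 0.816) and Sema3e (-0.44, SE 0.175, adjusted p 0.928). Robo2 means went from 126 ± 15.5 to 107 ± 9.60 CPM in D1 and from 97.5 ± 12.2 to 109 ± 9.14 CPM in D2. Sema3e means were 49.9 ± 6.91 and 44.0 ± 5.73 CPM in D1, and 47.4 ± 4.94 and 56.8 ± 8.04 CPM in D2. For Susceptible against Resilient they were Ephb1 (-0.54, SE 0.179, adjusted p 0.266) and Efna2 (-1.01, SE 0.365, adjusted p 0.289), which were -0.19 and -0.14 without D2 Susceptible replicates 1 and 2. In D1, Ephb1 was 79.6 to 97.4 CPM in Resilient and 68.6 to 93.2 CPM in Susceptible, which overlap.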

How the data were processed

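Ribosome-bound RNA from 30 libraries was sequenced from SMART-Seq v4 cDNA, per the labels. The count of reads per gene in each library was deposited by the authors, made with HISAT2 and HTSeq on GRCm38/mm10, per the submitters' processing notes. Annotation release and strand setting: not given in the sources used here. The 30 per-library files held the same counts as the table of the whole series. Summary lines, 10.1% to 53.3% of reads, were kept out of library sizes and tests.

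Gene names and exons came from GENCODE M21, which matched 55154 of 55335 IDs. Genes were kept with filterByExpr (minimum count 10, minimum total 15), which left 19368 tested and set 35967 aside. Counts were TMM-scaled and fitted with edgeR 4.0.16 (quasi-likelihood, R 4.3.3) on the 6 groups together, with Benjamini-Hochberg adjustment over all genes at 0.05. A common dispersion of 0.172 was estimated, or 41.4% as a biological coefficient of variation. A total of 3 counts corresponded to 0.0430 to 0.304 CPM across libraries. The scripts were tested on simulated data. No pair of libraries of a group was a copy of another: chi-square per degree of freedom was 12.8 to 2672 over 60 pairs. The labels call the libraries biological replicates without naming the mice, so p-values measure the spread between pools.

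The guidance genes, partner genes and marker lists were chosen with earlier results of these data known. The rule for genes named with values took up to 30 guidance genes with the smallest adjusted p in the averaged comparison, those called within a group, the 3 with the smallest p in each stress comparison (2 in each difference of changes), the most abundant of each family, and up to 8 partner genes. Of 6 D2 markers, 1 is not analysed here. Alternatives were DESeq2 1.42.0, voom with sample weights (limma 3.58.1), DESeq2 size factors, no filter, only the groups compared, a replicate block, and leaving out single libraries or those that stood apart. Replicate numbers are not said to pair libraries, so the replicate block was used as an alternative only.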

Additional observations from a re-analysis of the deposited data

Results flagged for a closer look

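Of 120 sets of 5 libraries examined (20 guidance genes in 6 groups), 14 held a library whose gap to its nearest neighbour was over 0.71 of the range of the group. Independent normal values pass that limit in about 1 in 20 sets. These genes were chosen from results of the same data and their sets share libraries, so the 14 cannot be measured against that rate. Values are CPM, followed by the nearest library of the group.

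In D2 Resilient, replicate 1 was highest for Dcc at 85 (nearest 64.7) and lowest for Slit1 at 12.7 (18.4). Replicate 3 was highest for Sema3g at 10.6 (5.41) and lowest for Sema6d at 26.1 (31.0). Replicate 5, the library with the high D1 marker sum, was highest for Nrp2 at 39.2 (27.8) and Sema5a at 14.8 (11.5). In D2 Susceptible, replicate 1 was highest for Ephb4 at 10.1 (3.38) and lowest for Nrp2 at 17.2 (26.1). In D2 Control, replicate 5 was highest for Sema5a at 15.3 (10.6). That library also had the highest D1 MSN marker sum of its group, 1236 CPM, and the lowest D2 MSN marker sum, 7287 CPM.

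In D1 Susceptible, replicate 1, where Gm42418 held most counts, was highest for Unc5c at 43.4 (26.2) and for Epha2 at 0.71 (0.0537). Replicate 4 was lowest for Sema6d at 32.6 (39.2), and replicate 5 was highest for Ntn1 at 68.5 (56.5). In D1 Resilient, replicate 5 was highest for Efna2 at 11 (8.54).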

How the results depend on the processing

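The averaged class comparison called 32 to 38 guidance genes with single libraries left out, 36 with DESeq2 and 43 with voom, against 33. Voom called 26 in Control (10 by edgeR), 25 in Resilient (11), 2 in D1 Resilient against Control and 1 in the Resilient against Control difference of changes (0 each). With only the groups compared in the fit, 16 were called in Control and 8 in Susceptible (28). Without D2 Susceptible replicates 1 and 2 the Susceptible count was 16, and without the 4 libraries that stood apart the Resilient count was 19. DESeq2 called 4 in D2 Susceptible against Resilient (0). Shares of all genes called are given for the main fit only. Whether these shifts are particular to guidance genes therefore cannot be read from the counts.

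Leaving out 1 library gave 6 to 11 in Resilient, 17 to 30 in Susceptible, 0 to 5 in D2 Susceptible against Control (5 without D2 Susceptible replicate 3) and 0 to 9 in D2 Susceptible against Resilient (9, 2 and 7 without D2 Susceptible replicate 3, 4 and 5). The cause was not tested.

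Signs changed for Efna5 between classes in Susceptible, to 0.0218 with voom and 0.0422 without D2 Susceptible replicates 1 and 2, from -0.67. In D2 Susceptible against Control, Efna2 was -0.0531 without those 2 libraries and -0.0544 without the 4. Against Resilient, without the 4, Efna2 was -0.0150 and Plxna4 -0.00570. Over the named results and their alternatives, 2263 values kept side and direction, 150 lost a call, 16 gained one and 6 changed sign. DESeq2 size factors and no filter moved no count of calls by over 1.5 times.

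With a replicate block the counts were 33 averaged, 10 in Control, 10 in Resilient, 25 in Susceptible and 0 elsewhere. Same-numbered libraries did not deviate together: the correlation of their deviations was -0.168 to 0.0779 over 75 pairs, and 2 libraries were closest to their own number. Genes with few counts in D1, such as Epha2, Ephb4 and Robo4, are limited by depth.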
